A study of Mus musculus with 16 samples.

Results

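Annexins are calcium-dependent proteins that bind membranes rich in acidic phospholipids such as phosphatidylserine. They act in membrane repair, vesicle traffic and the organisation of the cortical actin network, and some are also found at the outer cell surface, where they take part in plasminogen activation or in the recognition of dying cells. In nervous tissue they are known from glia and vessels as well as from neurons, and *Anxa11* is one of the genes whose human counterpart is mutated in familial amyotrophic lateral sclerosis (ALS). The annexins described here are the 8 genes *Anxa1*, *Anxa2*, *Anxa3*, *Anxa4*, *Anxa5*, *Anxa6*, *Anxa7* and *Anxa11*. They were chosen by symbol, with earlier results of these data known. All 8 of them were found among the 18167 genes measured in every mouse. A further 4 annexin genes of the same table, *Anxa8*, *Anxa9*, *Anxa10* and *Anxa13*, are described after them.

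RNA from the whole spinal cord of 16 male transgenic mice was sequenced, with 1 library per mouse. Mutant mice carried human profilin1, an actin-binding protein, with the ALS-linked G118V change (transgene Tg(Prnp-PFN1*G118V)838Kiaei). They were killed at a presymptomatic age of 50 days (mutant young, MY, n = 3) or at the end stage of disease at 175 to 245 days (mutant old, MO, n = 5). Control mice carried unchanged human profilin1 (transgene Tg(Prnp-PFN1)850Kiaei) and were 50 days old (wild-type young, WY, n = 3) or 190 to 294 days old (wild-type old, WO, n = 5). Both lines were kept on C57BL/6N and both transgenes were driven by the prion protein gene (*Prnp*) promoter, and each genotype was 1 transgenic line, so that the effects of the mutation and of the line cannot be told apart. All young mice belonged to batch 1, whereas each old group was split into 3 libraries of batch 1 (WO1 to WO3, MO1 to MO3) and 2 of batch 2. WO4 and WO5, from batch 2, had reached 294 days. Levels are log2(1 + FPKM), where FPKM is the fragment count of a gene scaled to transcript length and library size, after the authors' batch correction. Differences are the second group minus the first on that scale, and a fold change is therefore a ratio of 1 + FPKM, which understates the change of genes with low FPKM. A gene was called differentially expressed when its Benjamini-Hochberg false discovery rate (FDR) over all 18167 genes in limma was at most 0.05 and its fold change was at least 1.5 (0.585 on the log2 scale). The depth behind the value of a single gene is unknown, and the intervals given here rest on the variation among animals alone.

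The tissue label was checked against markers. The position genes of the spinal cord were present in every mouse (*Hoxc8*, 4.31 to 5.14 log2), and of the 3 forebrain genes, *Emx1* and *Tbr1* did not exceed 0.20 log2 in any. The third, *Neurod6*, was 1.39 to 1.73 log2 in all mice. The library MO5 went against the male label. Its *Xist* level was 3.21 log2 where no other mouse exceeded 0.37. The Y-linked gene *Ddx3y* stood at 1.95, below the 4.06 or more of all other mice. The differences of the annexins in WO vs. MO and MY vs. MO, their summed level and the counts of the gene lists are therefore given with and without it. Levels, likeness between genes and most values of single listed genes are given with it alone. The library WO4 also stood apart, with an *Mbp* level of 5.36 log2 where all other mice had at least 12.16. Without WO4, WO vs. MO called the same number of annexins, 3, with 1.495 log2 for *Anxa3*, 0.77 for *Anxa2* and 0.68 for *Anxa4*.

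The annexins covered a wide range of levels, and FPKM, being scaled to length, allows them to be ordered. In WO mice, *Anxa5* had the highest mean level (127.1 FPKM), followed by *Anxa6* (87.1), *Anxa2* (36.8), *Anxa7* (27.7), *Anxa3* (9.35), *Anxa11* (7.67), *Anxa4* (6.50) and *Anxa1* (0.250). Neighbours in this order did not overlap between mice, except that *Anxa3* overlapped *Anxa11* and *Anxa11* overlapped *Anxa4*. The order in WY and MY mice was the same, with an overlap of *Anxa11* and *Anxa4* alone among these 8. In MO mice it differed. *Anxa2* (64.8 FPKM) had drawn near *Anxa6* (71.6) and *Anxa3* (30.1) near *Anxa7* (33.4), each pair overlapping between mice, and *Anxa4* (11.1) stood above *Anxa11* (6.75) without overlap. The 8 annexins together reached 384 ± 24.5 FPKM (mean ± SD) in the 5 MO mice (392 ± 19.75 without MO5) and 302 ± 14.9 in the 5 WO mice. In the young groups of 3 mice the sum was 302 ± 5.54 (MY) and 299 ± 1.46 (WY). *Anxa5* made up 43.2% of this sum in MO and 42.1% in WO mice. The share of *Anxa6* was 18.7% in MO and 28.8% in WO mice, and that of *Anxa3* was 7.78% and 3.09%.

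WO vs. MO compares the end stage with old mice that carry the unchanged human protein, and MY vs. MO follows the mutant line from the presymptomatic age to the end stage. The 2 comparisons share the 5 MO mice. In each of them *Anxa2*, *Anxa3* and *Anxa4* were differentially expressed and higher in MO mice, which is 3 of the 8 annexins. Over all genes, 4.08% were called higher and 0.517% lower in WO vs. MO, and 4.11% higher and 0.787% lower in MY vs. MO. By the FDR alone, 5 annexins were higher (*Anxa2*, *Anxa3*, *Anxa4*, *Anxa5*, *Anxa7*) and 1 was lower (*Anxa6*) in both comparisons, against 15% of all genes higher and 12.9% lower in WO vs. MO, and 13.1% higher and 12.5% lower in MY vs. MO. For the same 5 annexins every MO mouse lay above all 11 other mice, as was the case for 7.58% of all genes, and for none of the 8 did every MO mouse lie below all others (2.66% of all genes). The median difference of the 8 annexins was 0.32 log2 in WO vs. MO and 0.31 in MY vs. MO, where the median of all genes was 0.00035 and 0.0047. In whole tissue, a change in the number of cells of a type and a change in the RNA of each cell cannot be told apart.

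**Figure D1:**
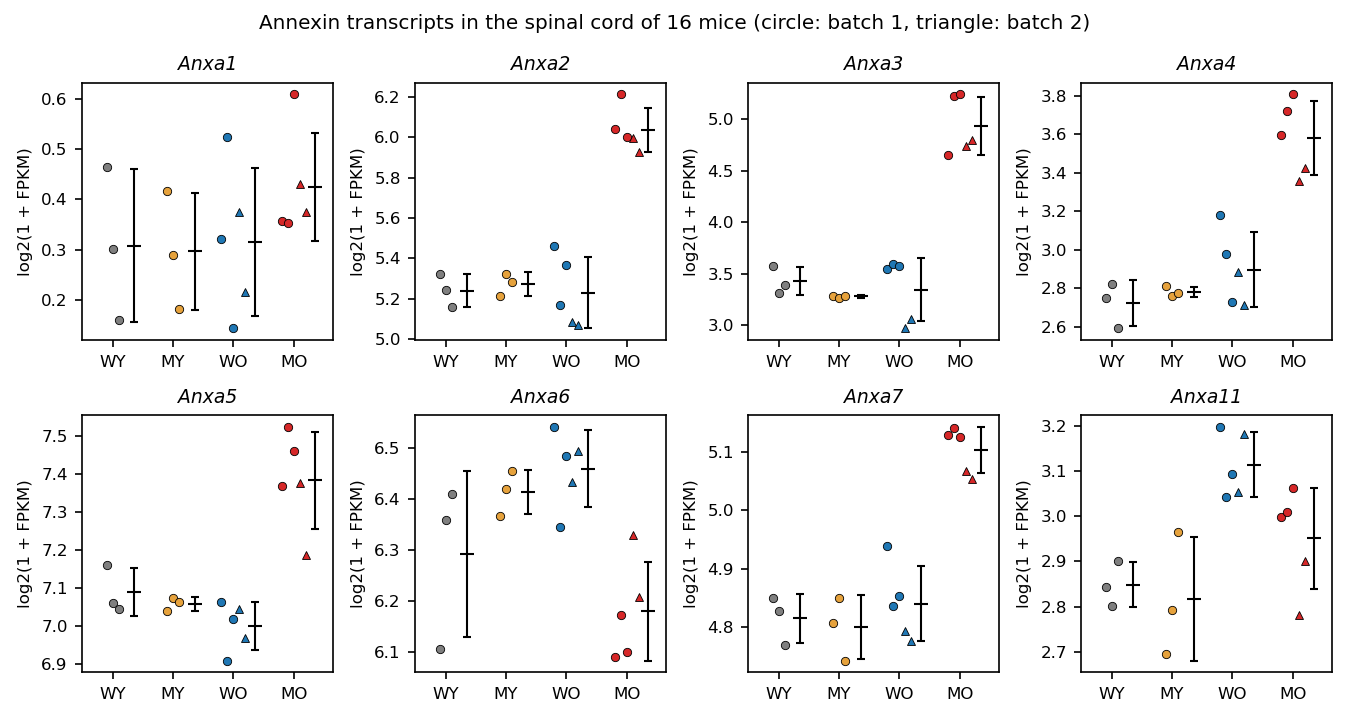
Level of each annexin in log2(1 + FPKM) by group, with 1 point per mouse (circles batch 1, triangles batch 2) and the mean ± SD beside the points; the y axes differ and do not start at 0. The 5 MO mice lie above all 11 other mice for *Anxa2*, *Anxa3*, *Anxa4*, *Anxa5* and *Anxa7*, below all WO and MY mice for *Anxa6*, and among the other mice for *Anxa1*.

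*Anxa3*, an annexin known from phagocytes and glia, had the largest difference of the 8 in both comparisons. The gene lies at chr5:96793339-96845966 on the plus strand (mm10). Its level in MO1 to MO5 was 4.66, 5.22, 5.25, 4.74 and 4.81 log2. In WO1 to WO5 it was 3.54, 3.59, 3.57, 2.97 and 3.06. It was 3.29, 3.27 and 3.28 in MY1 to MY3 and 3.58, 3.31 and 3.39 in WY1 to WY3. Every MO mouse thus stood more than 1 log2 unit above every other mouse, and the 2 WO mice of batch 2 were the lowest of all. In WO vs. MO the difference was 1.59 log2 (SE 0.16, 3.01-fold, 95% interval 2.34 to 3.87, FDR = 7.45e-05), and it was 1.47 within batch 1 (3 mice against 3) and 1.76 within batch 2 (2 against 2). In MY vs. MO it was 1.66 log2 (SE 0.14, 3.15-fold, 95% interval 2.51 to 3.96, FDR = 0.000301), and 1.76 with the MO mice of batch 1 alone. Without MO5 the differences were 1.62 (FDR = 0.000275) and 1.69 (FDR = 0.000844). Converted back, the MO mean was 30.1 FPKM, while the WO, MY and WY means were 9.35, 8.70 and 9.80.

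*Anxa2* forms a tetramer with the S100 protein p11, the product of *S100a10*, and at the cell surface this complex binds plasminogen and its activators. The gene lies at chr9:69453620-69491795 on the plus strand. Its level was 6.04, 6.21, 6.00, 6.00 and 5.93 log2 in MO1 to MO5. It was 5.46, 5.17, 5.37, 5.08 and 5.07 in WO1 to WO5. The MY mice had 5.21, 5.32 and 5.28 and the WY mice 5.32, 5.24 and 5.16. The MO mice did not overlap any other group, while WY, MY and WO overlapped each other. WO vs. MO gave 0.80 log2 (SE 0.085, 1.75-fold, 95% interval 1.53 to 1.99, FDR = 8.115e-05), with 0.75 within batch 1 and 0.89 within batch 2. The MY vs. MO difference was 0.76 log2 (SE 0.065, 1.70-fold, 95% interval 1.53 to 1.88, FDR = 0.000292), and 0.81 with the MO mice of batch 1 alone. Leaving out MO5 gave 0.83 (FDR = 0.000255) in WO vs. MO and 0.79 (FDR = 0.000744) in MY vs. MO.

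*Anxa4*, which binds membranes in epithelial and other secretory cells, lies at chr6:86736840-86793584 on the minus strand. MO1 to MO5 had levels of 3.60, 3.72, 3.81, 3.36 and 3.42 log2. WO1 to WO5 had 3.18, 2.97, 2.73, 2.88 and 2.71. The levels were 2.81, 2.76 and 2.77 in MY and 2.75, 2.82 and 2.59 in WY mice. The lowest MO mouse stood above the highest WO mouse, WO1, and the 2 MO mice of batch 2 were the lowest of their group. In WO vs. MO, *Anxa4* was higher by 0.68 log2 (SE 0.11, 1.61-fold, 95% interval 1.36 to 1.90, FDR = 0.00104), with 0.75 within batch 1 and 0.59 within batch 2. In MY vs. MO it was higher by 0.80 log2 (SE 0.10, 1.74-fold, 95% interval 1.48 to 2.04, FDR = 0.00107), and by 0.93 with the MO mice of batch 1 alone. The values without MO5 were 0.72 (FDR = 0.00178) and 0.84 (FDR = 0.00184).

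*Anxa5* and *Anxa7* were higher in MO mice by the FDR but stayed under 1.5-fold. *Anxa5*, the protein used in the laboratory to stain exposed phosphatidylserine, lies at chr3:36448923-36475894 on the minus strand. Its levels were 7.37, 7.52, 7.46, 7.38 and 7.19 log2 in MO1 to MO5, against 6.91 to 7.06 in WO, 7.04 to 7.07 in MY and 7.05 to 7.16 in WY mice. MO5 was the lowest MO mouse and exceeded the highest mouse of the other groups, WY1, by little. The difference was 0.38 log2 in WO vs. MO (SE 0.061, 1.30-fold, FDR = 0.00103), with 0.45 within batch 1 and 0.27 within batch 2. It was 0.32 in MY vs. MO (SE 0.071, 1.25-fold, FDR = 0.0119), 0.39 with the MO mice of batch 1 alone, and 0.31 with an FDR of 0.0534 when MY1 was left out. Over all alternatives that FDR ran from 0.00158 to 0.0534. Without MO5 the differences were 0.43 and 0.37. *Anxa7*, also called synexin, lies at chr14:20455260-20480133 on the minus strand and is known for the calcium-dependent aggregation of granules. It varied little within groups, with levels of 5.05 to 5.14 log2 in MO, 4.78 to 4.94 in WO, 4.74 to 4.85 in MY and 4.77 to 4.85 in WY mice. The MO mice again stood apart from all others. WO vs. MO gave 0.26 log2 for *Anxa7* (SE 0.039, 1.20-fold, FDR = 0.000668), with 0.26 within batch 1 and 0.28 within batch 2, and MY vs. MO gave 0.30 (SE 0.042, 1.23-fold, FDR = 0.0015). The values without MO5 were 0.28 and 0.32.

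*Anxa6* was the 1 annexin of the 8 that was lower in MO mice by the FDR. It is the largest annexin, built of a doubled annexin core, and is known for links between membranes and the actin cortex. The gene lies at chr11:54979108-55033445 on the minus strand. Levels were 6.09, 6.17, 6.10, 6.33 and 6.21 log2 in MO1 to MO5. They were 6.54, 6.34, 6.48, 6.43 and 6.49 in WO1 to WO5, 6.37, 6.42 and 6.45 in MY and 6.11, 6.36 and 6.41 in WY mice. The MO mice lay below all WO and MY mice, but the young control WY1 lay within their range. The difference was -0.28 log2 in WO vs. MO (SE 0.054, 0.824-fold, 95% interval 0.758 to 0.896, FDR = 0.00335), with -0.34 within batch 1 and -0.19 within batch 2. In MY vs. MO it was -0.23 (SE 0.060, 0.850-fold, FDR = 0.0222). That FDR was not held when MY1 (0.0542), MY2 (0.0748) or MY3 (0.0919) was left out, and otherwise ran from 0.00471 to 0.0477. Without MO5 the differences were -0.29 (FDR = 0.00726) and -0.24 (FDR = 0.0357).

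*Anxa11*, an RNA granule protein that can tether granules to lysosomes, did not pass the FDR in any comparison. It lies at chr14:25842156-25886804 on the plus strand. Its levels were 3.20, 3.04, 3.09, 3.05 and 3.18 log2 in WO1 to WO5 and 3.00, 3.01, 3.06, 2.78 and 2.90 in MO1 to MO5. In the young mice they were 2.69, 2.79 and 2.96 (MY) and 2.84, 2.80 and 2.90 (WY). The WO mice were thus above all young mice, and MO3 alone of the MO mice reached into the WO range. In WY vs. WO the difference was 0.27 log2 (SE 0.052, 1.20-fold, 95% interval 1.11 to 1.31) with an FDR of 0.0594, and 0.26 with the WO mice of batch 1 alone. In WO vs. MO it was -0.16 (SE 0.058, 0.893-fold) with an FDR of 0.0594, with -0.088 within batch 1 and -0.28 within batch 2. That FDR became 0.0201 after quantile normalization and 0.0421 without MO3, and ran from 0.0506 to 0.394 in all other alternatives. Without MO5 the difference of *Anxa11* was -0.15 (FDR = 0.115) in WO vs. MO and 0.15 (FDR = 0.284) in MY vs. MO, where all 5 MO mice gave 0.13 (FDR = 0.273). *Anxa1*, a glucocorticoid-induced mediator of the resolution of inflammation, lies at chr19:20373428-20390944 on the minus strand. It was close to the floor in every mouse, from 0.14 to 0.61 log2, or an FPKM of 0.105 to 0.526. Its difference was 0.11 log2 in WO vs. MO (FDR = 0.334) and 0.13 in MY vs. MO (FDR = 0.26), within the spread between mice, and 0.12 (FDR = 0.340) and 0.14 (FDR = 0.267) without MO5.

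**Figure D2:**
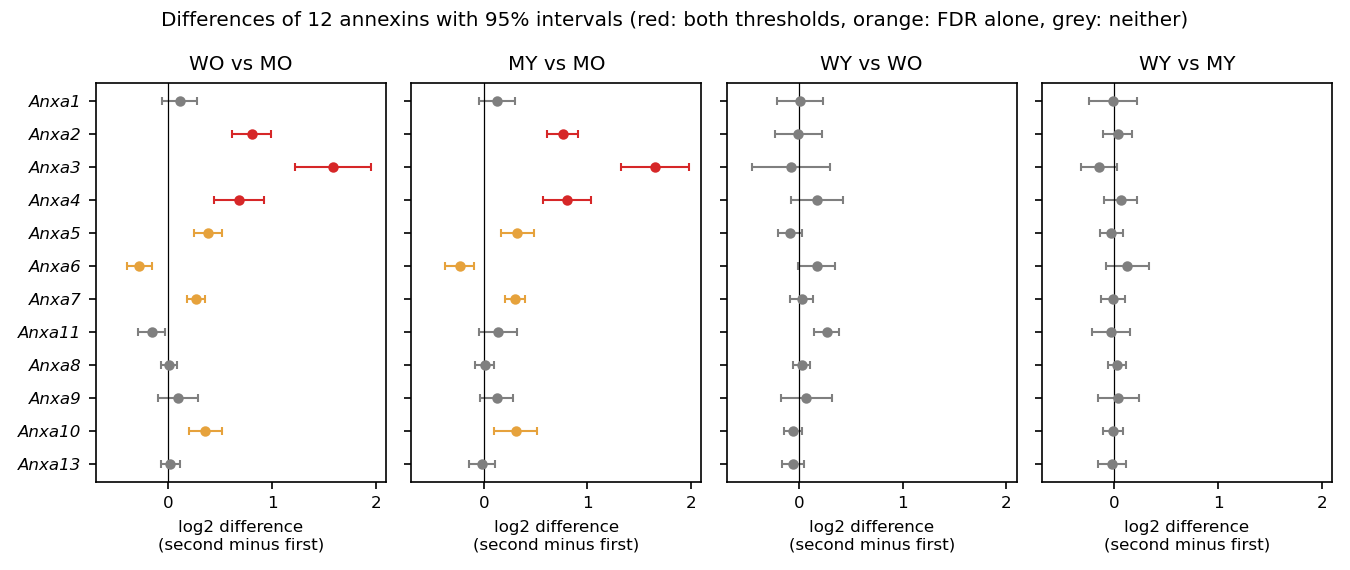
Difference in log2(1 + FPKM), second group minus first, of 12 annexins in the 4 comparisons, with 95% intervals from limma; red passed the FDR and the fold change, orange the FDR alone and grey neither. In WO vs. MO and MY vs. MO, *Anxa3*, *Anxa2* and *Anxa4* have the largest differences, while in WY vs. WO and WY vs. MY no annexin passed the FDR.

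Among the 4 further annexins, *Anxa10* was at or near the floor outside the MO group. Its level was 0.46, 0.59, 0.15, 0.30 and 0.34 log2 in MO1 to MO5, against at most 0.10 in any other mouse, including values just below 0 in WO4 and WO5 that the batch correction left. All 5 MO mice were thus above the other 11, at a very low level. The difference passed the FDR in WO vs. MO (0.36 log2, SE 0.072, FDR = 0.00408) and in MY vs. MO (0.31 log2, SE 0.090, FDR = 0.0375), and was under 1.5-fold in both. In WO vs. MO the FDR was at most 0.0130 with any single mouse left out (0.36 log2, FDR = 0.00913 without MO5). In MY vs. MO it was missed without MO5 (0.31 log2, FDR = 0.0609), MO1 (0.0594), MY1 (0.102), MY2 (0.0929) or MY3 (0.128), and ran from 0.0133 to 0.0467 without any other mouse. *Anxa9* ranged from 0.52 to 1.00 log2 over all mice, *Anxa8* from 0.05 to 0.18 and *Anxa13* from 0.01 to 0.19, and none of these 3 passed the FDR in any comparison.

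Adult ageing in the control line (WY vs. WO) and genotype at the presymptomatic age (WY vs. MY) gave no call for any of the 8 annexins in limma, by both thresholds or by the FDR alone. At an unadjusted p under 0.05, 1 of the 8 annexins passed in WY vs. WO (*Anxa11*), near the 13.5% of all genes that did, and 0 passed in WY vs. MY, against 7.16% of all genes. Few genes passed at all, with 0.253% called by both thresholds and 1.12% by the FDR alone in WY vs. WO, and 0.0055% by either rule in WY vs. MY. The 46 genes called in WY vs. WO became 7 without WY3, 23 without WY1, 26 without WO2, 27 without WO3 and 30 without WY2, and the 1 gene called in WY vs. MY became 2 to 5 without any mouse but MY3. In WY vs. MY, the difference of *Anxa3* was -0.15 log2 with a 95% interval of -0.33 to 0.026, and that of *Anxa2* was 0.033 with an interval of -0.11 to 0.17. For *Anxa4* it was 0.059 with an interval of -0.10 to 0.22. The young intervals therefore end well short of the end-stage differences of these genes. In WY vs. WO the intervals were wider, from -0.46 to 0.29 for *Anxa3*, from -0.24 to 0.22 for *Anxa2* and from -0.079 to 0.43 for *Anxa4*. With the WO mice of batch 1 alone, the difference of *Anxa3* in that comparison turned from -0.082 to 0.14 (FDR = 0.530) and that of *Anxa2* from -0.0096 to 0.093 (FDR = 0.765).

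The change with age was then compared between the lines, as (MO - MY) - (WO - WY) in 1 fit of all 16 mice. By both thresholds 3 annexins differed, against 5.61% of all genes, and by the FDR alone 6 did, against 17.7%. The difference was 1.74 log2 for *Anxa3* (SE 0.23, FDR = 0.000205), 0.77 for *Anxa2* (SE 0.12, FDR = 0.000677) and 0.63 for *Anxa4* (SE 0.16, FDR = 0.0143). These 3 transcripts thus rose more with age in the mutant line than in the control line. *Anxa4* fell short of 1.5-fold when MO3 (0.57 log2), WO3 (0.58), WO5 (0.58) or WY2 (0.57) was left out, with the FDR still at most 0.0297 in these 4 fits. *Anxa5* (0.41, FDR = 0.00525), *Anxa7* (0.28, FDR = 0.00555) and *Anxa6* (-0.40, FDR = 0.0123) passed the FDR alone. Without MO5 the same test gave 1.77 for *Anxa3*, 0.80 for *Anxa2* and 0.66 for *Anxa4*. The WO mice of batch 2 were older than every MO mouse, so in the pooled old groups age is not matched. With the mice of batch 1 alone, the values were 1.62 (FDR = 0.000291), 0.72 (FDR = 0.0028) and 0.69 (FDR = 0.0124).

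The partners of the annexins were described by 7 lists with 46 genes in the table. These lists were chosen with earlier results of these data known. Their counts therefore describe these genes and do not test for an excess over all genes. Of these 46, 16 were called higher and 0 lower in WO vs. MO, and 18 higher and 1 lower in MY vs. MO. Their median difference was 0.30 and 0.29 log2. For comparison, 4.08% of all genes were called higher and 0.517% lower in WO vs. MO, and 4.11% and 0.787% in MY vs. MO. Without MO5 the counts were 17 higher in WO vs. MO and 18 higher in MY vs. MO with 0 lower in both, and without WO4, 14 were higher in WO vs. MO. The S100 proteins that bind annexins were higher throughout, 4 of 4 in both comparisons, with a median of 2.14 log2 in WO vs. MO. *S100a10*, the partner of *Anxa2*, was 7.08, 7.61, 7.31, 7.44 and 7.25 log2 in MO1 to MO5 and 6.11 to 6.75 in WO mice. All MO mice were above all WO mice, and the difference was 0.92 log2 (SE 0.14, FDR = 0.000677), with 0.73 within batch 1 and 1.19 within batch 2. *S100a11*, a partner of *Anxa1*, differed by 1.81 log2 (FDR = 2.16e-05), *S100a6* by 2.47 (FDR = 1.46e-05) and *S100a4* by 3.33 (FDR = 1.46e-05) in the same comparison. Without MO5 these 4 differences were 0.94, 1.85, 2.50 and 3.35, and all were called.

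Plasminogen activation at the cell surface, the process to which the *Anxa2* complex contributes, was represented by 6 genes. Of these, 4 were called higher in WO vs. MO and 3 in MY vs. MO, against 4.08% and 4.11% of all genes. The urokinase gene *Plau* had levels of 2.45, 3.14, 3.91, 2.91 and 2.88 log2 in MO1 to MO5 and at most 1.35 in the other mice, a difference of 2.05 in WO vs. MO (FDR = 0.000129). Its receptor *Plaur* differed by 1.40 log2 (FDR = 8.4e-05). The plasminogen receptor *Plgrkt* passed the FDR alone (0.40 log2, FDR = 0.00153). The tissue activator *Plat* was higher by 1.08 log2 in WO vs. MO (FDR = 1.46e-05) and by 0.57 in MY vs. MO, under 1.5-fold there. It was also the 1 gene of the 7 lists called in WY vs. WO, where it was lower in WO mice (-0.67 log2, FDR = 0.0115). Without MO5, *Plau* (2.09 log2), *Plaur* (1.38) and *Plat* (1.07) were called in WO vs. MO as before. Plasminogen itself (*Plg*) did not exceed 0.20 log2 in any mouse.

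**Figure D3:**
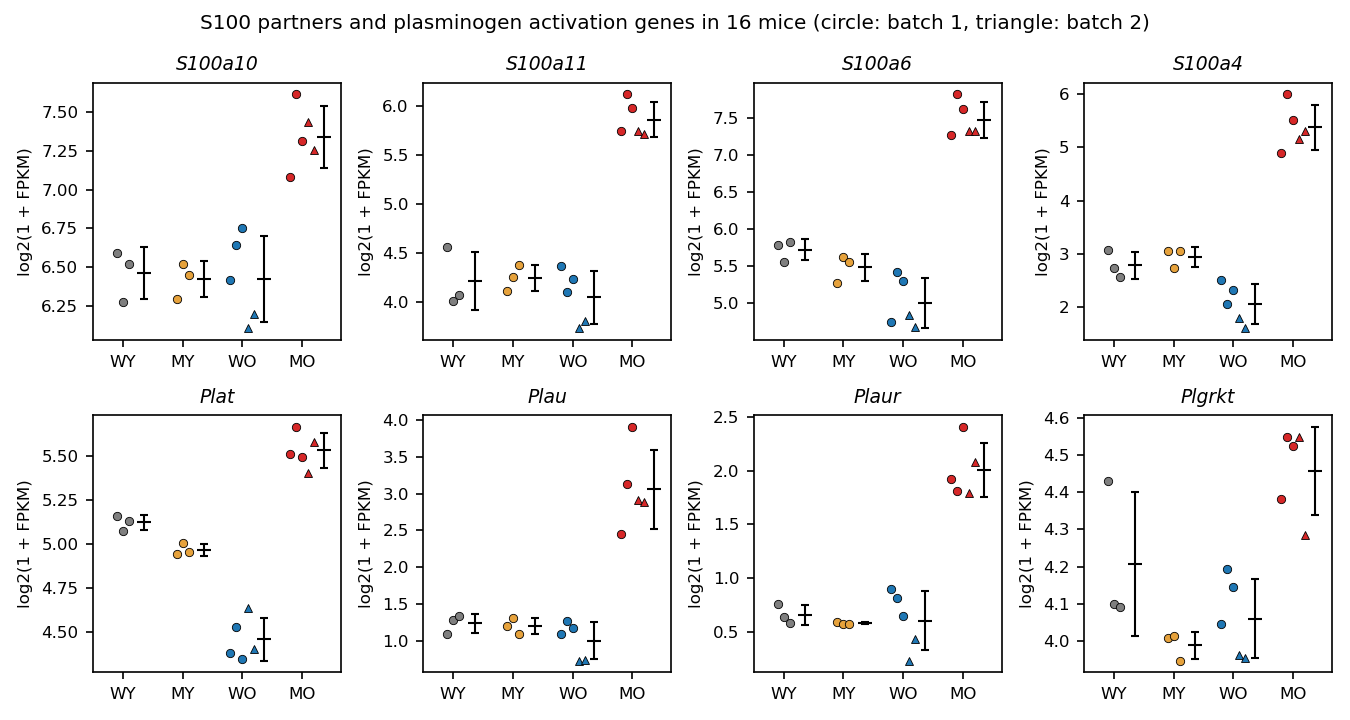
Level in log2(1 + FPKM) of 4 S100 genes and 4 genes of plasminogen activation by group, with 1 point per mouse (circles batch 1, triangles batch 2) and the mean ± SD beside the points; the y axes differ and do not start at 0. The 5 MO mice lie above all WO mice in each panel, and *Plat* is also lower in WO than in young mice.

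Genes of phosphatidylserine exposure and recognition, the lipid that *Anxa5* binds, were called higher in 5 of 13 cases in WO vs. MO and 6 of 13 in MY vs. MO. The share of all genes called higher was 4.08% and 4.11%. The 5 genes called in both comparisons were the scramblase *Ano6* (0.62 log2 in WO vs. MO, FDR = 0.000114), the bridging ligand *Pros1* (1.31, FDR = 5.71e-05), the receptor kinases *Axl* (1.07, FDR = 2.34e-05) and *Mertk* (0.63, FDR = 0.0141), and the receptor *Cd300lf* (1.02, FDR = 0.00159). The receptor *Stab1* was called in MY vs. MO alone (0.66 log2, FDR = 0.0193), with 0.57 and an FDR of 0.0144 in WO vs. MO. Not all genes of this list were higher in MO mice. The receptor *Adgrb1* was lower by the FDR alone in WO vs. MO (-0.36, FDR = 0.00285) and in MY vs. MO (-0.26, FDR = 0.0326). *Tyro3*, the receptor kinase related to *Axl* and *Mertk*, was lower by the FDR alone in MY vs. MO (-0.32, FDR = 0.0315), with -0.24 and an FDR of 0.0601 in WO vs. MO. Of the membrane repair genes, *Myof* (0.93 log2, FDR = 0.000377) and *Ahnak* (0.86, FDR = 0.00074) were called, 2 of 12 in WO vs. MO, and *Ptrf* joined them in MY vs. MO (0.71, FDR = 0.00479). Judged by the FDR without the fold change, 5 of the 12 were higher and 2 lower in both comparisons. The share of all genes was 15% higher and 12.9% lower in WO vs. MO, and 13.1% and 12.5% in MY vs. MO. The lower count of the list is thus near that of all genes. Its 2 lower genes were *Pdcd6ip* (-0.17 log2 in WO vs. MO, FDR = 0.00288) and *Capn1* (-0.26, FDR = 0.00935). The dysferlin gene *Dysf* differed by 0.012 log2 in WO vs. MO (FDR = 0.924). Of the 5 genes of phospholipase A2 and eicosanoid synthesis, *Alox5ap* was called higher in both comparisons (0.61 log2 in WO vs. MO, FDR = 0.000872). In MY vs. MO *Ptgs1* was also called higher (0.63, FDR = 0.000522) and *Pla2g4a*, whose product is inhibited by annexins in some settings, lower (-0.70, FDR = 0.0348). *Pla2g4a* was also lower with age in the control line, by the FDR alone (WY vs. WO, -0.47, FDR = 0.0278). In WO vs. MO it did not pass (-0.30, FDR = 0.202). Without MO5, *Pla2g4a* missed the FDR in MY vs. MO (-0.71, FDR = 0.0572) and *Alox5* was called in WO vs. MO (0.59, FDR = 0.000362). Without WO4, *Mertk* (0.58, FDR = 0.0369) and *Alox5ap* (0.58, FDR = 0.00295) stayed under 1.5-fold in WO vs. MO. The formyl peptide receptor genes *Fpr1* and *Fpr2*, whose products are receptors for *Anxa1*, were at most 0.63 log2 in every mouse, and neither was called. None of the 4 genes of RNA granules and the lysosomal tether was called, with *Lamp1* higher by the FDR alone in WO vs. MO (0.30 log2, FDR = 0.000359).

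The cellular make-up of the cord, as read from markers, moved with the MO group. As a measure for the counts that follow, 4.08% of all genes were called higher and 0.517% lower in WO vs. MO. In MY vs. MO these shares were 4.11% and 0.787%. Of 10 microglial genes, 8 were called higher in WO vs. MO and 9 in MY vs. MO, with *C1qa* the most abundant. Their summed FPKM was 645, 814, 985, 575 and 624 in MO1 to MO5, 211, 219, 226, 164 and 158 in WO1 to WO5, 187, 202 and 194 in MY, and 202, 189 and 201 in WY mice. It was highest in MO3 and MO2, the 2 mice in which *Anxa3* was also highest, and lowest in the same 2 WO mice as *Anxa3*. *P2ry12*, a marker of resting microglia, differed by 0.10 log2 in WO vs. MO (FDR = 0.623). Of 8 astrocyte genes, 4 were called higher in WO vs. MO and 2 in MY vs. MO, with *Gfap* the most abundant. The summed FPKM of this list was 3194, 4085, 3703, 3307 and 3322 in MO1 to MO5. Like the microglial sum, it was thus highest in MO2 and MO3. Among WO mice it ran from 1822 (WO5) to 2079 (WO4). The young mice had 2191 to 2276 (MY) and 2333 to 2555 (WY). Of 6 motor neuron genes, 2 were called lower in WO vs. MO (*Chat*, *Chodl*) and 1 in MY vs. MO (*Chodl*). By the FDR, 5 of 6 were lower in each, against 12.9% and 12.5% of all genes. The sum of the 6 genes was 47.0 to 62.8 FPKM in MO and 89.6 to 103 in WO mice. Among the young mice it was 79.0 to 88.1 (MY) and 63.0 to 86.4 (WY). Without MO5 the microglial counts were 8 of 10 in both comparisons, since *Tmem119* missed 1.5-fold in MY vs. MO (0.56 log2), and the astrocyte and motor neuron counts were as before. The part of these cell types in the annexin differences was not tested.

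Of 6 oligodendrocyte genes, 1 was called lower in WO vs. MO and 3 in MY vs. MO, against 0.517% and 0.787% of all genes. The sum of the 6 genes, mostly *Mbp* except in WO4, was 10010, 9262, 9277, 5021 and 23680 FPKM in WO1 to WO5. In MO1 to MO5 it was 6894, 7372, 7514, 21860 and 21230. Among the old mice, those of batch 2 other than WO4 thus had the highest sums, after the batch correction. Endothelial genes gave 0 calls of 6 in both comparisons. By the FDR, 5 of 6 were lower in MO mice in WO vs. MO, against 12.9% of all genes. Of 4 ependymal genes, *Rarres2* was called higher in WO vs. MO. Without MO5, oligodendrocyte genes gave 0 lower calls in WO vs. MO and 4 in MY vs. MO, endothelial genes gave 1 lower call in WO vs. MO (*Cdh5*, -0.60 log2) and *Rarres2* lost its call (0.584 log2). Lists of meningeal fibroblasts (6 genes), Schwann cells (4), sensory neurons (5), neutrophils and monocytes (7), T cells (4), red blood cells (5), skeletal muscle (3), spinal cord position (5), forebrain (3) and sex (5) gave 0 calls in both comparisons. By the FDR alone, sensory neuron genes gave 1 higher and 1 lower in WO vs. MO and 1 higher in MY vs. MO. Position genes gave 1 lower in each (*Hoxc8* in WO vs. MO, *Hoxc10* in MY vs. MO), and 1 muscle gene was lower in WO vs. MO. Among all genes, the FDR alone gave 15% higher and 12.9% lower in WO vs. MO, and 13.1% and 12.5% in MY vs. MO. Counts of 1 in lists this short are near those shares. Several defining markers were near 0 in every mouse, with *Scn10a* of sensory neurons at most 0.017 log2, *Ccr2* of monocytes at most 0.18 and *Cd3e* of T cells at most 0.16. Of the 4 T cell genes, *Cd3g* (0.21 log2, FDR = 0.0127) and *Cd8a* (0.092, FDR = 0.0412) were higher by the FDR alone in WO vs. MO, at levels of at most 0.37 log2, and *Cd8a* missed the FDR without MO5 (0.095, FDR = 0.0622). The summed FPKM of this list, with *Cd3g* the most abundant, was 0.320, 0.374, 0.233, 0.297 and 0.520 in MO1 to MO5, above the 0.208 or less of all other mice. Its part in the annexin differences was not tested. The summed FPKM of neutrophil and monocyte genes was 35.96 in WO2 and at most 8.49 in the other mice. Red blood cell genes summed to 38.6 in MO1 and to at least 131 in the others.

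The genes most like the 3 called annexins were found by the root mean square difference over the 16 mice, each gene centred on its own mean, among the other 13529 genes with a mean of at least 1 log2. Nearest to *Anxa2* were *Tor3a* (0.0622 log2), *Msrb1* (0.0828) and *Sdc4* (0.0916), where *Anxa2* itself varied by 0.383. Among the nearest to *Anxa3* were *Xlr* (0.100) and *Pld4* (0.108), against 0.766 for *Anxa3* itself. For *Anxa4*, which varied by 0.386, they were *Tcn2* (0.111), *Slco2b1* (0.114) and *Plcg2* (0.115).

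The set of RefSeq (GRCm38.p6) promoter windows used here held 6 of the 8 annexins, in 8 windows of 250 bases before a transcript start. *Anxa3* and *Anxa6* were not in this set. Of the windows of *Anxa2* and of the outer start of *Anxa4*, shown because these transcripts were higher together in MO mice, the bases from 250 to 64 before the RefSeq start lie outside every annotated transcript. They are printed 5′ to 3′ on the strand of the gene, for *Anxa2* from chr9:69453433-69453619 (plus strand) and for *Anxa4* from chr6:86793648-86793834 (minus strand), with motif matches in capitals.
Anxa2: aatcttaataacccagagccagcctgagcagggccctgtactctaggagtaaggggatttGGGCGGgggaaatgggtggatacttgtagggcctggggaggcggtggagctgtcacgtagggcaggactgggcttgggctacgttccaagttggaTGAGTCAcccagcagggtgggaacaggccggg
Anxa4: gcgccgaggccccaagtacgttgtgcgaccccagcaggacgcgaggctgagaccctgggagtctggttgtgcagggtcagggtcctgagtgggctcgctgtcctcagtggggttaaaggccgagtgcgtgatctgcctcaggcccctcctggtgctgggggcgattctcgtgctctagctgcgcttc

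Capitals mark the AP-1 motif TGAGTCA, 95 to 89 bases before the *Anxa2* start, and the Sp1 motif GGGCGG, 190 to 185 bases before it. These motifs and the NF-κB motif GGACTTTCC were chosen after the sequences had been seen, and both strands of the 250 bases were searched. TGAGTCA was found in 1 of the 8 annexin windows, that of *Anxa2*, and in 4.46% of the 32851 windows of all genes. GGGCGG was found in 4 of the 8 (*Anxa2*, *Anxa11* and both windows of *Anxa7*) and in 32.7% of all. GGACTTTCC was found in 1, that of *Anxa4*, 54 to 46 bases before the RefSeq start and so outside the printed stretch, and in 0.283% of all windows. A match describes the letters alone.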

How the data were processed

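Spinal cord RNA of 16 mice was measured, with 1 library each. The log2(1 + FPKM) values were used as deposited. The authors used Trimmomatic for cleaning, TopHat for alignment (mm10) and Cufflinks for FPKM and corrected for the 2 batches with ComBat, and versions, annotation and ComBat covariates are not given in the sources used here. The correction left 915 values below 0.

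Each comparison was fitted on its own 2 groups with limma 3.58.1 (R 4.3.3, two-sided) and the age difference between lines on all 16 mice. Python 3.11.15, pandas 2.3.3, NumPy 2.4.6, SciPy 1.17.1 and matplotlib 3.10.9 were used. Gene positions came from GENCODE M21 (GRCm38). FPKM was converted back as 2 to the power of the value, minus 1, with values below 0 set to 0.

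The genes named were the annexins, the called genes of the 7 partner lists with some uncalled members, chosen after their values were seen, and the most alike genes of each called annexin. Members and lists were chosen with earlier results of these data known. Among the listed genes, *Fpr3*, *Timd4*, *Cavin1* (present under its older symbol *Ptrf*), *Mrgprd* and *Hbb-bt* were not found by symbol. Alternatives were batch 1 alone, batch as a term, a minimum mean of 1, a pseudocount of 0.5, quantile normalization, all 4 groups in 1 fit, an intensity trend, a block for replicate numbers, and the omission of single mice. For *Anxa10*, the summed annexins and the gene lists, the omission of mice was chosen after seeing the data.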

Additional observations from a re-analysis of the deposited data

Results flagged for a closer look

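The change with age differed between the lines by the FDR for *Anxa3* (1.74 log2, FDR = 0.000205), *Anxa2* (0.77, FDR = 0.000677), *Anxa4* (0.63, FDR = 0.0143), *Anxa5* (0.41, FDR = 0.00525), *Anxa7* (0.28, FDR = 0.00555) and *Anxa6* (-0.40, FDR = 0.0123), tested as (MO - MY) - (WO - WY) in limma. *Anxa10* gave 0.37 log2 in the same test (FDR = 0.0207), at levels of at most 0.59 log2, and missed the FDR without MY3 (0.35 log2, FDR = 0.0584) or WY1 (0.36 log2, FDR = 0.0505).

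A single mouse stood far from its group in 2 of 64 screened groups of 5, and chance alone gives about 1 in 20. *Anxa9* was 1.00 log2 in WO1, where the next WO mouse had 0.68. *Ptrf* was 3.73 log2 in MO1, where the next MO mouse had 3.28.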

How the results depend on the processing

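*Anxa2*, *Anxa3* and *Anxa4* passed both thresholds in WO vs. MO and MY vs. MO in all 8 other settings and with any single mouse left out. In the test of the age effect between lines, which had 7 other settings, *Anxa2* and *Anxa3* passed both thresholds in these 7 and with any single mouse left out, while *Anxa4* lost the fold change without 4 of the 16 mice, so that the count of annexins ran from 2 to 3. The cause was not tested.

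Reversals were seen for uncalled differences alone. In WY vs. WO, *Anxa2* turned from -0.0096 to 0.093 log2 and *Anxa3* from -0.082 to 0.14 with batch 1 alone, with batch as a term or with the replicate block, and *Anxa2* to 0.010 after quantile normalization. Leaving out 1 mouse gave ranges in WY vs. WO of -0.067 to 0.086 for *Anxa1*, -0.068 to 0.031 for *Anxa2*, -0.14 to 0.012 for *Anxa3* and -0.00037 to 0.042 for *Anxa7*. In WY vs. MY the ranges were -0.086 to 0.066 for *Anxa1*, -0.0081 to 0.074 for *Anxa2*, -0.0059 to 0.11 for *Anxa4*, -0.052 to 0.0056 for *Anxa5*, -0.041 to 0.014 for *Anxa7* and -0.10 to 0.030 for *Anxa11*.

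Over all genes, the 46 calls of WY vs. WO became 73 with batch 1 alone, 80 with batch as a term and 7 to 64 without 1 mouse. The 1 call of WY vs. MY became 2 with a minimum mean of 1, 4 with all groups in 1 fit, 2 with an intensity trend and 1 to 5 without 1 mouse. The cause was not tested. In the age effect between lines, quantile normalization lowered the share of higher calls from 82.8% to 72.1%. Leaving out 1 mouse moved it as far, to 71.7% without WY2 and 90.3% without WY1. The mice were treated as unpaired. Correlations between mice of the same replicate number, each taken relative to its group mean, ran from -0.207 (number 3, WO vs. MO) to 0.377 (number 1, WY vs. WO). They were 0.0853 to 0.177 in MY vs. MO and -0.2 to -0.0194 in WY vs. MY. So few pairs cannot decide whether the numbers pair the mice. With the replicate block the calls went from 890 to 1108 in MY vs. MO and from 836 to 840 in WO vs. MO. They went from 46 to 63 in WY vs. WO, stayed at 1 in WY vs. MY and went from 1020 to 1008 in the age effect between lines. Without counts, no counting error can be given for the low levels of *Anxa1* and *Anxa10*.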
